A study of Homo sapiens with 4 samples.

Results

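RNF7 encodes RBX2, 1 of the RING subunits of the cullin-RING ubiquitin ligases, and its mRNA was 12.2-fold lower in IMR90, a fibroblast line from human fetal lung, after knockdown of HMGB1. The values below describe RNF7 and 9 genes that work with it: RBX1, the other RING subunit, the cullins CUL1, CUL2, CUL3, CUL4A and CUL5, the ubiquitin-like modifier NEDD8, and the NEDD8-conjugating enzymes UBE2F and UBE2M. The 10 genes were taken by symbol from the 63677 genes of the count files, each found once on a primary chromosome, and all 10 had enough reads to be tested. RNF7 was chosen on its own fall in these libraries, so its values are given as a description and without a test. The 9 partners were named by function. The libraries were mRNA-seq (poly(A) RNA) of passage 5 cells of isolates I90-10 and I90-79, transfected with RNAiMAX and either a non-targeting control (NTC) siRNA or siRNA against HMGB1, a chromatin and RNA-binding protein, and taken at 72 h. Each group held 2 libraries, replicate 1 from I90-10 and replicate 2 from I90-79, so each isolate had 1 library per condition. The study's methods state that 2 different siRNAs were used in IMR90, and which of them is in which library is not given in the sources used here.

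Cullin-RING ligases are assembled on a cullin, an elongated scaffold. At one end the cullin holds a RING subunit, which brings in an enzyme charged with ubiquitin, and at the other end an adaptor and a substrate receptor, which select the protein to be marked. The ligase is switched on when NEDD8 is attached to the cullin. In the usual assignment RBX1 serves most cullins and works with UBE2M, whereas RBX2, the RNF7 product, serves CUL5 and works with UBE2F. RNF7 is also known as SAG, a redox-responsive protein that protects cells from apoptosis.

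Libraries held between 29861687 and 35317010 counted reads. CPM below are reads scaled by library size and TMM factor. RPKM are CPM per kilobase of the exon length in the count files, and fold changes were tested with edgeR's quasi-likelihood test. That length joins all annotated exons of a gene and can exceed its main mRNA. RPKM compared between genes thus depend on the annotation. Calls needed an adjusted p below 0.01 together with a log2-fold change of more than 0.6 in either direction. The targeted gene HMGB1 had 181 and 237 CPM in control and 15.96 and 18.9 CPM in knockdown libraries (log2-fold change −3.59, standard error 0.19, adjusted p = 0.0075). The summed CPM of 7 fibroblast markers (without the TMM factor) was 18343 to 32670 in control and 20038 to 30605 in knockdown libraries, and most of it came from the collagens COL1A1, COL1A2 and COL3A1. Among the others THY1 had 416 and 209 CPM in control and 222 and 93.7 CPM in knockdown libraries, PDGFRB 183 and 96.5 against 99.9 and 65.2 CPM, and FAP 134 and 80.6 against 160.0 and 131 CPM, and their part in the results was not tested. Of 9 markers of epithelial, endothelial, blood and muscle cells, summed at 2.75 to 5.83 CPM in control and 4.95 to 7.23 CPM in knockdown libraries, KRT5 and CDH5 had 0 reads in every library, which allows at most 0.1005 CPM, and the highest was VWF at 4.02 CPM. Among all 15398 genes tested 7642 had higher and 7756 lower fitted values in knockdown, and 0.0649% were called higher and 0.136% lower. With the isolate as a block these shares were 6.68% and 7.84%, and at an adjusted p below 0.05 with the same fold threshold and without the block they were 3.73% and 4.34%. An unadjusted p below 0.05 was reached by 28.3% of all genes, and DESeq2 without the isolate called 4.56% higher and 5.12% lower, 9.68% in all.

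RNF7 was measured at 107 and 97.8 CPM in the control libraries and at 9.63 and 7.14 CPM in the knockdown libraries. These levels rest on 3149 and 3604 reads in control and on 278 and 223 reads in knockdown. Both knockdown libraries lay far below both control libraries, and the group means were 103 ± 6.65 CPM (SD, n = 2) and 8.38 ± 1.76 CPM (SD, n = 2), which leaves 8.18% of the control level. The fold was 11.1 in I90-10 and 13.7 in I90-79. The fitted log2-fold change was −3.61, the 14th lowest of the 15398 genes and next to HMGB1 itself, which ranked 15th. In bulk RNA, fewer cells that hold a transcript and less transcript per cell cannot be told apart.

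**Figure D1:**
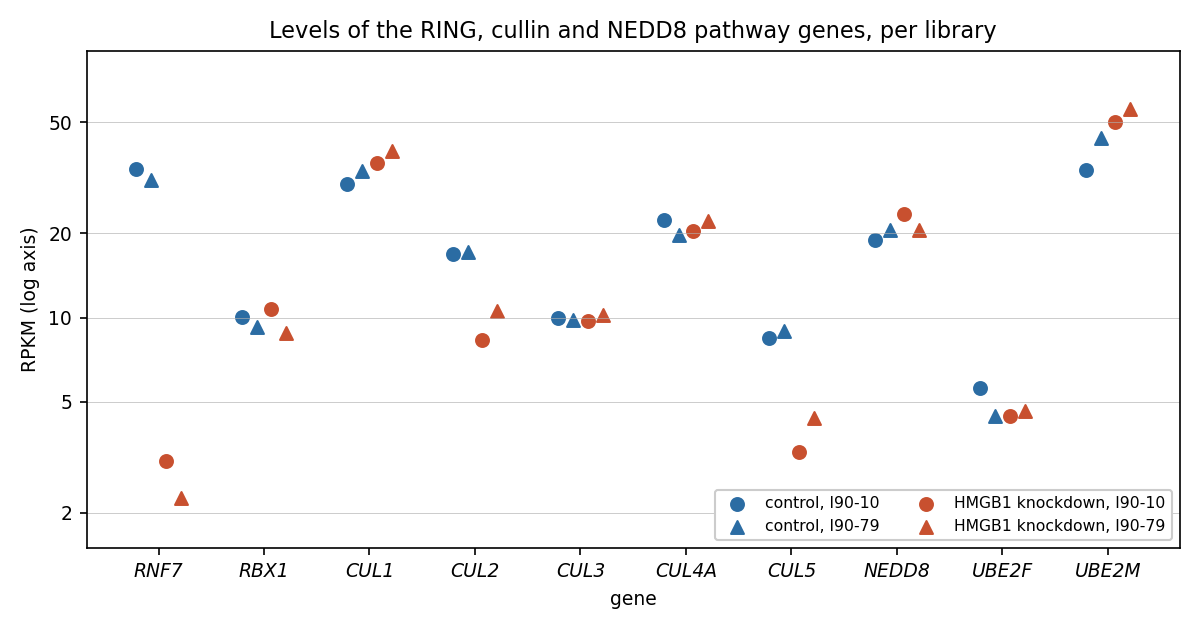
Level of each of the 10 genes in each library, in RPKM on a log axis, for control (blue) and HMGB1 knockdown (red) libraries of isolates I90-10 (circles) and I90-79 (triangles). RNF7 drops from 34.1 and 31.1 to 3.06 and 2.27 RPKM and CUL2 and CUL5 lie lower in both knockdown libraries, while the RBX1, CUL3, CUL4A and UBE2F points of both conditions overlap.

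RNF7 (ENSG00000114125) lies on the plus strand of chromosome 3, from 141457046 to 141466402 of hg19, with 3147 exonic bases in 4 blocks. None of these bases overlaps another gene of the count files, and other genes' transcripts hold 1.90% of the 50-base stretches of its own. Of the 24 genes that start within 500 kb of its start, RNF7 included, 7 had enough reads to be tested. Of the 6 others, 5 had higher and 1 had lower fitted values in knockdown, and they ran from −0.57 to 0.83. ATP1B3, which encodes a subunit of the sodium pump and starts 137.9 kb downstream of the start of RNF7, had 167 and 208 CPM in control and 244 and 279 CPM in knockdown libraries (log2-fold change 0.48, standard error 0.16, adjusted p = 0.126). TFDP2, the partner of E2F transcription factors, was the 1 with a lower value (−0.57, standard error 0.15, adjusted p = 0.0846). ZBTB38, RASA2, GK5 and the gene ENSG00000272565 had log2-fold changes of 0.57, 0.79, 0.51 and 0.83. None of the 6 was called by edgeR without the isolate, although all 6 had an unadjusted p below 0.05, beside 28.3% of all genes. DESeq2 called 1 of the 6, beside 9.68% of all genes. With the isolate as a block edgeR called 2 of the 6 higher, RASA2 and ENSG00000272565, beside 6.68% of all genes. These differences in share were not tested.

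RBX1, the RING subunit that serves most cullins, had 31.1 and 28.7 CPM in control and 33.0 and 27.2 CPM in knockdown libraries. The groups overlap, and the value was a little above control in I90-10 and a little below it in I90-79. The log2-fold change was 0.01 (95% interval −0.36 to 0.38, adjusted p = 0.974). An increase of RBX1 beyond 0.38 on this scale lies outside the interval, as does a decrease beyond 0.36. For RBX1, 6.02% of the exonic bases overlap XPNPEP3.

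Per base of all annotated exons, RNF7 mRNA stood higher than RBX1 mRNA in control cells and lower in knockdown cells. The ratio of RNF7 to RBX1 in RPKM was 3.39 and 3.35 in control and 0.286 and 0.258 in knockdown libraries. RNF7 thus made up 77.2% and 77.0% of the summed RPKM of both RING genes in control and 22.3% and 20.5% in knockdown libraries. The sum itself was 44.1 and 40.4 RPKM in control and 13.7 and 11.1 RPKM in knockdown libraries. These ratios contain RNF7 and so carry the change it was chosen on. Their size within a library also depends on the annotation. The exon lengths are 3147 bases for RNF7 and 3092 for RBX1, but the 3′ UTRs of their main transcripts have 2283 and 821 bases. Per main mRNA the RBX1 level may therefore be understated beside that of RNF7.

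**Figure D2:**
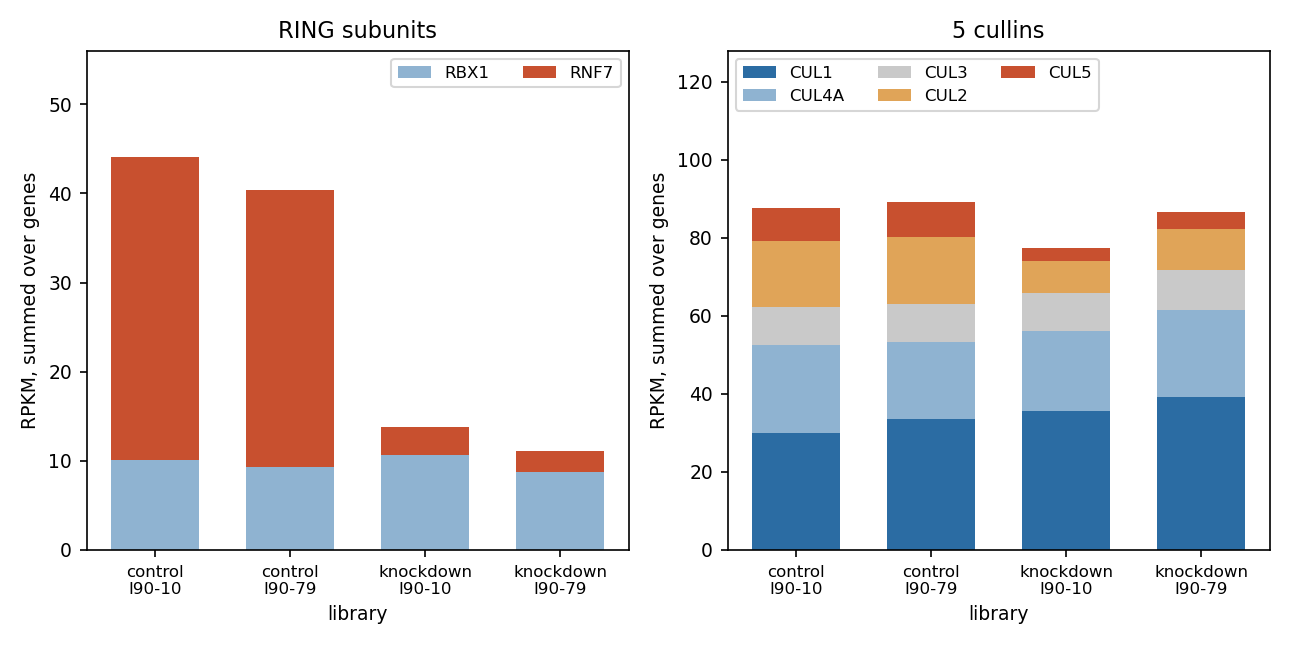
Summed RPKM of the RING subunits (left) and of the 5 cullins (right) in each library, stacked by gene from 0. The RNF7 segment shrinks from 34.1 and 31.1 to 3.06 and 2.27 RPKM over an RBX1 segment of 8.79 to 10.7 RPKM, and CUL2 and CUL5 together take 28.9% and 29.3% of the cullin sum in control and 15.02% and 17.2% in knockdown libraries.

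Of the 9 partners, 2 had both knockdown libraries below both control libraries, 3 had both above, and in 4 the groups overlapped. Across all genes tested the same holds for 30.2% below and 29.8% above. The 2 lower ones were CUL5 and CUL2. None of the 9 partners was called by edgeR without the isolate, where 3 (33.3%) had an unadjusted p below 0.05, beside 28.3% of all genes. The block fit called 2 of 9 (22.2%) lower, CUL5 and CUL2, and 0 higher, beside 7.84% and 6.68% of all genes, and DESeq2 without the isolate gave the same counts.

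CUL5, the scaffold of the SOCS-box ligases and the usual partner of RBX2, had 57.0 and 60.5 CPM in control and 22.2 and 29.6 CPM in knockdown libraries. Both knockdown libraries lay below both control libraries, by 2.57-fold in I90-10 and by 2.05-fold in I90-79. The log2-fold change was −1.18 (95% interval −1.61 to −0.75, standard error 0.17). The adjusted p was 0.0234 without the isolate and 0.000268 with the isolate as a block, and over all alternatives it ranged from 1.42e-10 to 0.0838. Of its exonic bases 6.69% overlap an antisense gene, and the strand setting of the counts is not given in the sources used here, so reads of this gene and of its antisense partner cannot be told apart there.

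CUL2, the scaffold of the von Hippel-Lindau ligases, had 84.6 and 85.8 CPM in control and 41.6 and 52.5 CPM in knockdown libraries. Other genes' transcripts hold 3.82% of its 50-base stretches. The control libraries were nearly equal, and the knockdown libraries lay 2.03-fold lower in I90-10 and 1.63-fold lower in I90-79. The log2-fold change was −0.85 (95% interval −1.23 to −0.48, standard error 0.15), with an adjusted p of 0.0346 without the isolate and of 0.000939 with the isolate as a block, and a range from 6.1e-07 to 0.125 over all alternatives. In both cullins the isolate I90-10 had the lower knockdown level and the larger fold, whereas for RNF7 the fold was larger in I90-79.

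The other 3 cullins did not pass the test in either fit. CUL1, the scaffold of the F-box ligases, had 107 and 119 CPM in control and 127 and 139 CPM in knockdown libraries, so that its groups did not overlap (log2-fold change 0.24, 95% interval −0.07 to 0.55, adjusted p = 0.266). CUL3, which carries BTB-domain receptors, had 114 and 113 CPM in control and 111 and 117 CPM in knockdown libraries (log2-fold change 0.01, interval −0.25 to 0.28, adjusted p = 0.957). CUL4A, which works through the adaptor DDB1, had 129.6 and 114 CPM in control and 118 and 129 CPM in knockdown libraries (log2-fold change 0.02, interval −0.29 to 0.33, adjusted p = 0.938). CUL3 had the narrowest interval of the 9 partners. For CUL1 10.9% and for CUL4A 6.40% of the exonic bases overlap a gene on the other strand.

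As shares of the summed RPKM of the 5 cullins, CUL5 took 9.62% and 10.1% in control and 4.25% and 5.06% in knockdown libraries. CUL2 took 19.3% in each control library and 10.8% and 12.2% in knockdown libraries. The share of CUL1, the most abundant of the 5 in every library, was 34.2% and 37.6% in control and 46.1% and 45.4% in knockdown libraries. Among the cullins, the order of levels per length in control libraries was CUL1, CUL4A, CUL2, CUL3 and CUL5, with no overlap between neighbours. In the knockdown libraries CUL2 (8.34 and 10.5 RPKM) overlapped CUL3 (9.69 and 10.2 RPKM).

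NEDD8 had 73.3 and 79.4 CPM in control and 91.1 and 79.6 CPM in knockdown libraries. Its groups did not overlap, but the isolate I90-79 hardly moved, and the log2-fold change was 0.16 (95% interval −0.15 to 0.47, adjusted p = 0.443). The read-through gene NEDD8-MDP1 and GMPR2 overlap 13.4% of its exonic bases. The share of its reads that falls there was not measured and may be larger, so its values are uncertain. UBE2M, the enzyme that passes NEDD8 to the RBX1 cullins, had 62.0 and 80.5 CPM in control and 91.7 and 102 CPM in knockdown libraries. Both knockdown libraries lay above both control libraries, but the change was within the fold threshold in both fits (log2-fold change 0.44, 95% interval 0.03 to 0.85). The adjusted p was 0.153 without the isolate and 0.0122 with the isolate as a block. Leaving out control replicate 1 gave 0.26 and leaving out control replicate 2 gave 0.64. UBE2M also shares 8.83% of its 50-base pieces with the pseudogene UBE2MP1.

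UBE2F, the enzyme that passes NEDD8 to CUL5 through RBX2, was the least abundant of the 10 genes per length in control libraries. It had 22.7 and 18.0 CPM in control and 18.0 and 18.8 CPM in knockdown libraries, with groups that overlapped (log2-fold change −0.15, 95% interval −0.57 to 0.28, adjusted p = 0.609). Its exons overlap those of the read-through gene UBE2F-SCLY over 17.0% of their bases. Of the chain UBE2F, RNF7 and CUL5, the mRNAs of RNF7 and CUL5 were thus lower in both isolates while that of UBE2F was 0.34 lower in I90-10 and 0.06 higher in I90-79 on the log2 scale.

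**Figure D3:**
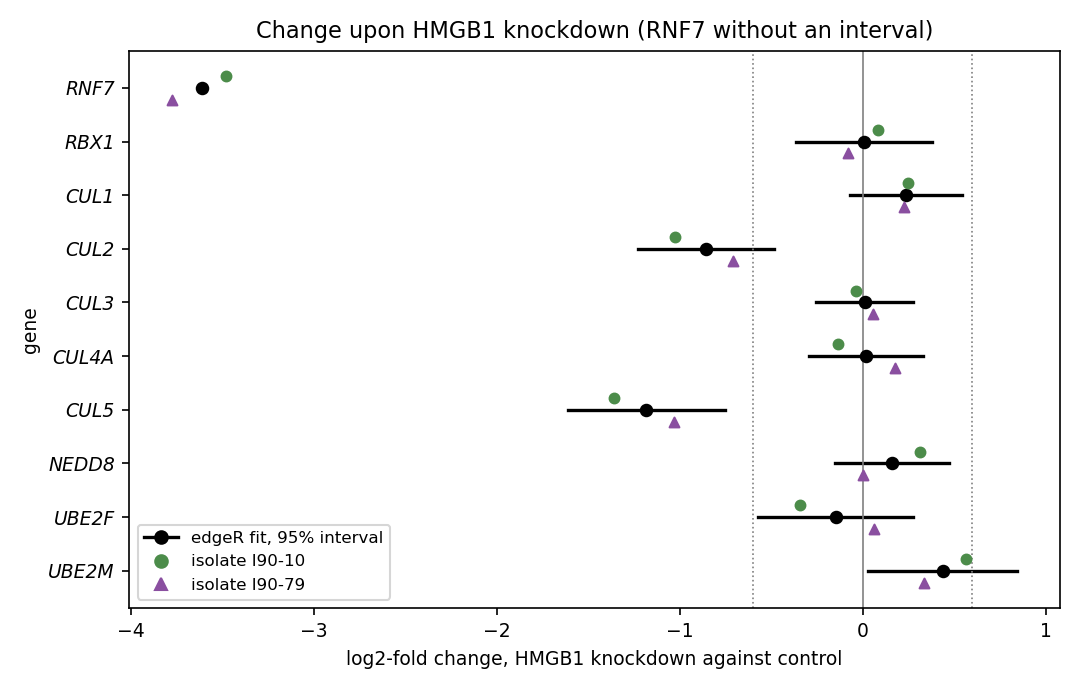
Log2-fold change of each gene, HMGB1 knockdown against control: black points are the edgeR fit without the isolate, with 95% intervals for the 9 partners, green circles are isolate I90-10 and purple triangles I90-79, and dotted lines mark the fold threshold of 0.6. RNF7, chosen on this change, is drawn without an interval at −3.61, CUL5 and CUL2 lie at −1.18 and −0.85, and the other 7 lie between −0.15 and 0.44.

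Per exon length, the control means ran from UBE2M at 38.9 ± 7.18 RPKM (SD, n = 2) over RNF7 at 32.6 ± 2.11, CUL1 at 31.8 ± 2.48, CUL4A at 21.0 ± 1.93, NEDD8 at 19.7 ± 1.12, CUL2 at 17.1 ± 0.172, CUL3 at 9.86 ± 0.109, RBX1 at 9.67 ± 0.550 and CUL5 at 8.71 ± 0.368 to UBE2F at 5.03 ± 0.829. The control libraries of UBE2M and RNF7, of RNF7 and CUL1, of CUL4A and NEDD8, and of CUL3 and RBX1 overlapped, so these neighbours did not differ beyond their spread. In knockdown libraries RNF7 was the lowest of the 10, at 2.66 ± 0.558 RPKM, below CUL5 at 3.84 ± 0.772 and UBE2F at 4.54 ± 0.144. The single values of RNF7 (3.06 and 2.27) and CUL5 (3.29 and 4.38) did not overlap. This order is per base of all annotated exons and need not be that of the mRNAs. For NEDD8 that length is 3879 bases, while the 3′ UTR of its main transcript has 270 bases, so its level may be understated.

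Sequence was examined in the 3′ UTRs, since an earlier analysis of these data had found the 6-base word GCAGTT more often in the 3′ UTRs of genes that fell. The word was therefore picked on these libraries, and its counts are given as a description. It was searched on the transcript strand of the annotated main transcript. The 3′ UTR of RNF7 (2283 bases) holds 3 copies, that of CUL5 (3377 bases) 3, those of CUL2 (1760 bases) and CUL3 (4095 bases) 2 each and that of CUL4A (3526 bases) 1, and the shorter ones of RBX1 (821 bases), CUL1 (528 bases), NEDD8 (270 bases), UBE2F (1444 bases) and UBE2M (377 bases) hold none. Across 12358 tested genes with a 3′ UTR of at least 100 bases, 63.8% hold no copy and 5.83% hold 3 or more. The sites of RNF7, CUL5, CUL2 and CUL3 and the first site of HMGB1 follow, to show the bases around the word where fitted values were lower (RNF7, CUL5, CUL2, HMGB1) and where the value was near 0 (CUL3), 30 bases each in GRCh37 from 5′ to 3′ of the transcript, with the word in capitals.
RNF7 site 1 (chr3:141464131-141464160, plus strand): aggcttcttagcGCAGTTgttcagagccct
RNF7 site 2 (chr3:141464445-141464474, plus strand): caggcagtggaaGCAGTTtcagagaacttt
RNF7 site 3 (chr3:141464517-141464546, plus strand): aacaaataaagtGCAGTTtaaaacccaact
CUL5 site 1 (chr11:107977418-107977447, plus strand): aaaatcttaccaGCAGTTtgtaaaggtctg
CUL5 site 2 (chr11:107977516-107977545, plus strand): gggatataacctGCAGTTaagtgaaaagaa
CUL5 site 3 (chr11:107978365-107978394, plus strand): ttttaagtggtaGCAGTTtctgtatgcagt
CUL2 site 1 (chr10:35298931-35298960, minus strand): cccttcacgtttGCAGTTgatgtgtctttt
CUL2 site 2 (chr10:35298514-35298543, minus strand): gtaattccatcaGCAGTTtctggtggtgtg
CUL3 site 1 (chr2:225336833-225336862, minus strand): catttctgaattGCAGTTgaatggttggag
CUL3 site 2 (chr2:225336066-225336095, minus strand): ttaatttggaaaGCAGTTttaatgtttaca
HMGB1 site 1 (chr13:31035464-31035493, minus strand): gttggttctagcGCAGTTttttttttcttg

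The first RNF7 copy begins 24 bases after the stop codon and the first HMGB1 copy 13 bases after its own. Around them both transcripts read TAGCGCAGTT, a run of 10 bases and the longest that any site of the 10 genes shares with an HMGB1 site. Among the 12358 3′ UTRs this run occurs in 4, or 0.0324%, and the other holders are WTIP, with a log2-fold change of −1.10 (adjusted p = 0.0272), and N4BP2L2, with −0.47 (adjusted p = 0.0719). The CUL2, CUL3, CUL5 and CUL4A sites share at most 9, 8, 7 and 7 bases with any HMGB1 site. The 9 bases of CUL2 match HMGB1 site 3, which is not printed above. With the printed HMGB1 site 1, CUL2 shares at most 7 bases. The run was picked after the values were seen. Over all tested genes the median log2-fold change was 0.07 with 0 copies of the word, −0.10 with 1, −0.22 with 2 and −0.32 with 3 or more, and the median 3′ UTR length rose along the same classes from 886 over 2197 and 3509 to 5443.5 bases. Of 16 further pathway genes with 3 or more copies, 10 had fitted values below 0, beside 502 of 720 over all tested genes. DCUN1D5 (4 copies) and SKP1 (3 copies) were among those with higher values. HMGB1 itself holds 3 copies. The sequences of the siRNAs against HMGB1 are not given in the sources used here, so neither the word nor the run could be compared with them. Whether the word, the run or the length has a part in the lower levels, that of RNF7 included, was not tested. The copy of CUL4A lies past the end of the gene in the count files.

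**Figure D4:**
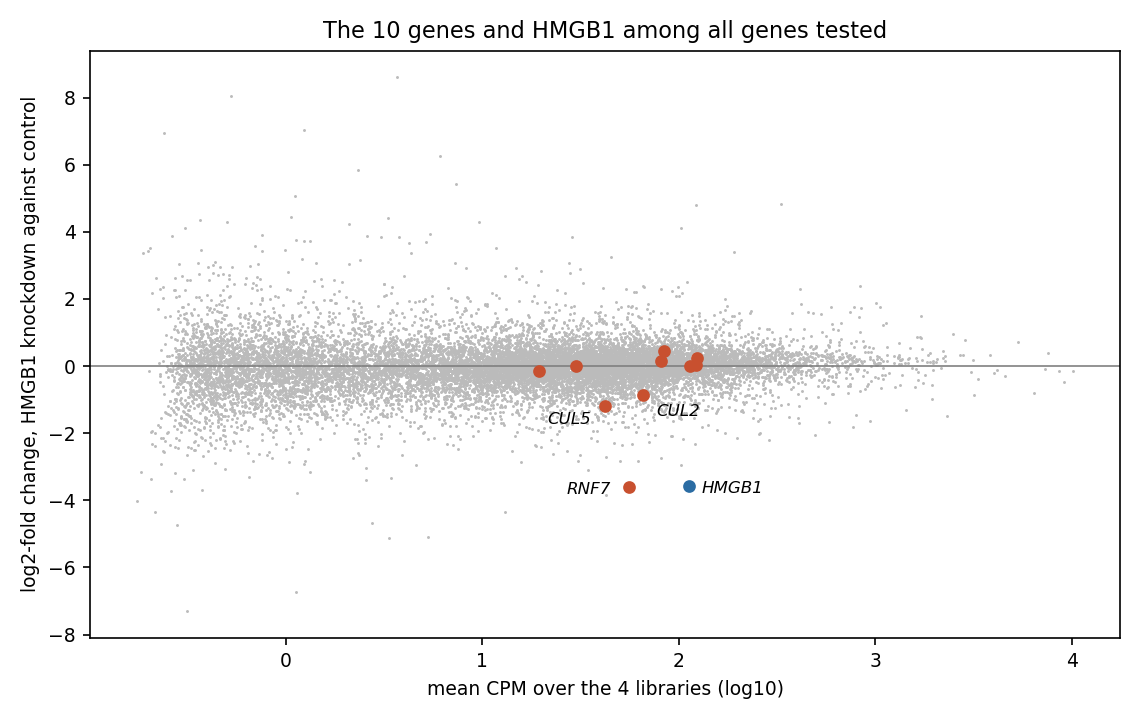
Log2-fold change (HMGB1 knockdown against control, edgeR fit) against the mean level (log10 CPM over the 4 libraries) for the 15398 genes tested (grey), the 10 genes (red) and HMGB1 (blue). RNF7 at −3.61 and HMGB1 at −3.59 lie side by side below the cloud at their levels, CUL5 and CUL2 lie at −1.18 and −0.85, and the other 7 lie between −0.15 and 0.44.

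The genes whose 4 values ran most like those of RNF7 were sought among 9322 others with a mean of at least 10 CPM, by the Euclidean distance of log2 CPM centred per gene. HMGB1 was the closest (distance 0.60). It was followed by AMOTL2, an angiomotin family member of the Hippo pathway, at 0.65, by CDK2AP1, an inhibitor of CDK2, at 0.86, and by GNPTAB, of lysosomal enzyme sorting, and the non-coding FGD5-AS1 at 0.93 each. AMOTL2 had 195 and 168 CPM in control and 26.9 and 19.7 CPM in knockdown libraries. Like RNF7 it was lower in both isolates and lowest in the knockdown library of I90-79. All 5 were ranked on the contrast that RNF7 was chosen on, so their values are a description as well.

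The rest of the pathway was followed in 10 lists of 159 genes by role, of which 155 could be tested. Fitted values were higher in knockdown for 76 and lower for 79 of them, with a median log2-fold change of −0.02 beside −0.01 over all genes tested. Without the isolate 0 were called higher and 1 lower, and with the isolate as a block 11 (7.10%) were called higher and 20 (12.9%) lower, against the 6.68% and 7.84% of all genes. The difference between these shares was not tested. Below, the gene with the smallest p of a list is named by rule, and the others were chosen after their values were seen, among the block calls and, for SKP1 and CAND1, outside them.

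WSB2, a SOCS-box receptor, was the 1 pathway gene called without the isolate. It had 159.9 and 134 CPM in control and 33.1 and 36.3 CPM in knockdown libraries, 4.23-fold lower on the means (log2-fold change −2.08, standard error 0.14, adjusted p = 0.0096). Without knockdown replicate 1 its adjusted p was 0.0542 and without knockdown replicate 2 it was 0.0396. Of 23 SOCS-box receptors tested, 11 had higher and 12 lower fitted values (median −0.10). The block called 4 (17.4%) higher and 5 (21.7%) lower, beside 6.68% and 7.84% of all genes. An unadjusted p below 0.05 was reached by 11 (47.8%), beside 28.3% of all genes. These differences in share were not tested. PCMTD1, a SOCS-box protein of the methyltransferase type, stood at the other end, with 17.3 and 18.5 CPM in control and 54.5 and 70.3 CPM in knockdown libraries (log2-fold change 1.80, adjusted p = 0.0111). SPSB1, a receptor for the inducible nitric oxide synthase, had 46.3 and 48.8 CPM in control and 95.7 and 82.5 CPM in knockdown libraries, and SOCS3, an inhibitor of cytokine signalling, 69.1 and 117 against 197 and 208 CPM. SOCS2, of growth hormone signalling, had 34.2 and 42.4 CPM in control and 22.5 and 22.8 CPM in knockdown libraries. The receptors of CUL5 thus moved in both directions in the block fit while CUL5 itself was lower.

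DDB1, the adaptor that ties receptors to CUL4A and CUL4B, was the lowest of the 4 adaptors tested. It had 361 and 345 CPM in control and 123 and 119 CPM in knockdown libraries, a 2.92-fold difference of the means (log2-fold change −1.55, standard error 0.12). Its groups lay far apart and its isolates were alike, with −1.56 and −1.54. The adjusted p was 0.0104 without the isolate, just over the threshold. The block called DDB1 lower, 1 of 4 adaptors (25.0%), beside 7.84% of all genes. The other 3 adaptors had higher fitted values, and SKP1, the adaptor of CUL1, was the highest of them at 0.35 (adjusted p = 0.132). Of 23 DCAF receptors, which bind DDB1, 12 had higher and 11 lower fitted values (median 0.04). The block called 1 (4.35%) higher and 5 (21.7%) lower, beside 6.68% and 7.84% of all genes. An unadjusted p below 0.05 was reached by 8 (34.8%), beside 28.3% of all genes. These differences in share were not tested. Among the lower calls was ERCC8, the Cockayne syndrome protein, with 13.2 and 12.8 CPM in control and 4.50 and 6.44 CPM in knockdown libraries. Another was DDB2, the damage sensor of ultraviolet lesions, with 23.4 and 26.5 CPM against 17.1 and 14.2 CPM.

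Among the enzymes that attach NEDD8, 3 of 7 had higher and 4 lower fitted values. The block called 2 (28.6%) higher and 1 (14.3%) lower, beside 6.68% and 7.84% of all genes. An unadjusted p below 0.05 was reached by 3 (42.9%), beside 28.3% of all genes. These differences in share were not tested. DCUN1D5, 1 of the co-factors that promote the transfer, had 34.6 and 37.04 CPM in control and 65.6 and 76.1 CPM in knockdown libraries (log2-fold change 0.98, standard error 0.13, adjusted p = 0.0198). Its relative DCUN1D1 went the other way, with 33.9 and 34.3 CPM in control and 16.8 and 22.4 CPM in knockdown libraries (−0.80, adjusted p = 0.0543). NAE1, a subunit of the activating enzyme, had 42.8 and 52.4 CPM in control and 71.7 and 82.4 CPM in knockdown libraries (0.69, adjusted p = 0.0540). All 3 were called in the block fit and by DESeq2, which called 14.5% and 9.68% of all genes.

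Of the 13 genes that remove NEDD8 or exchange receptors, 10 had higher and 3 lower fitted values (median 0.09), and 0 were called without the isolate or by DESeq2, with 3 (23.1%) at an unadjusted p below 0.05, beside 28.3% of all genes. COPS7B, a subunit of the COP9 signalosome that takes NEDD8 off, had the smallest p (log2-fold change −0.45, standard error 0.11, adjusted p = 0.0723). CAND1, the exchange factor, had 167 and 159.6 CPM in control and 193 and 205 CPM in knockdown libraries (0.28, adjusted p = 0.178). Its paralog CAND2 was called lower in the block fit, 1 of 13 (7.69%) beside 7.84% of all genes. The log2-fold change of CAND2 went from −1.57 to −0.23 as single libraries were left out. Of the 10 ubiquitin enzymes that work with the ligases, 8 had higher and 2 lower fitted values (median 0.05) and 0 were called by edgeR or DESeq2, with 3 (30%) at an unadjusted p below 0.05, again beside 28.3%. UBE2G1, the elongating enzyme of CUL4 ligases, had the smallest p among them (−0.49, adjusted p = 0.0543). Of the cullins outside the 10 genes, 2 of 3 had higher fitted values and 0 were called by edgeR or DESeq2, with 2 (66.7%) at an unadjusted p below 0.05, beside the same 28.3%. CUL7 had 64.0 and 64.9 CPM in control and 89.0 and 93.9 CPM in knockdown libraries (0.50, standard error 0.11, adjusted p = 0.0501).

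**Figure D5:**
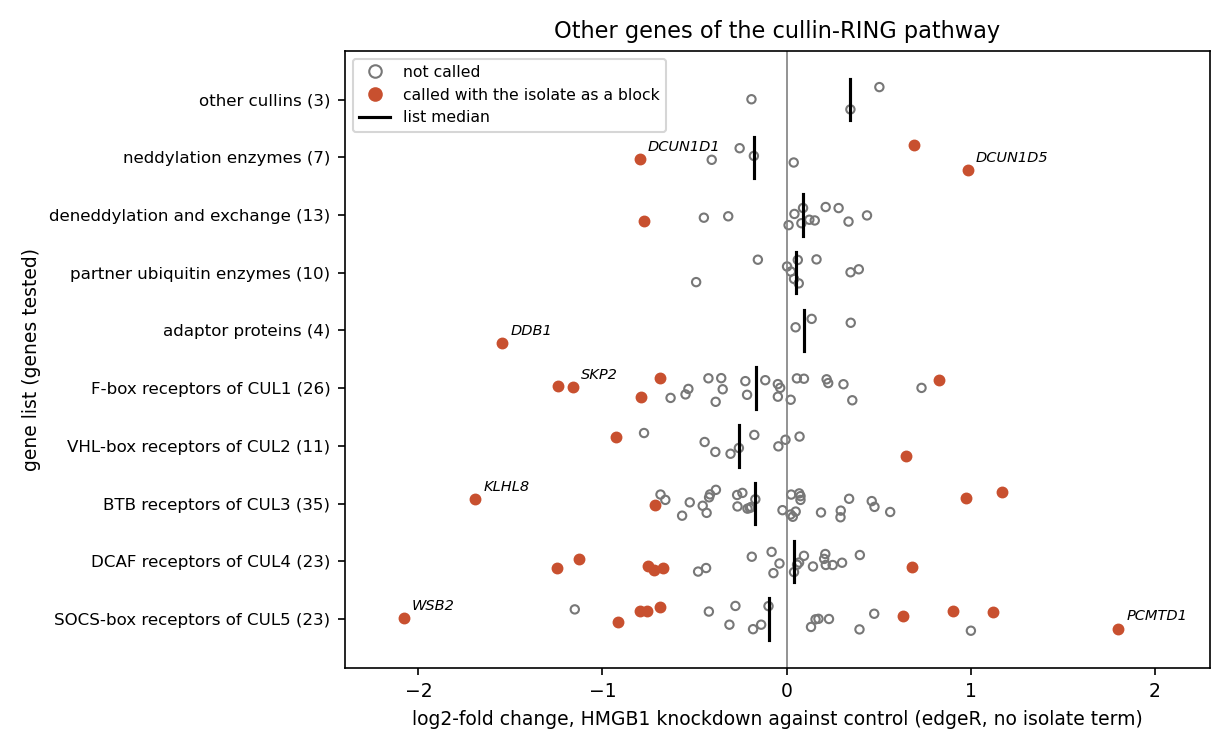
Log2-fold change (HMGB1 knockdown against control, edgeR fit without the isolate) of 155 further pathway genes in 10 lists, 1 circle per gene, with filled circles for the 31 genes called with the isolate as a block and black bars for list medians. The medians lie between −0.26 and 0.35, WSB2 (−2.08) and PCMTD1 (1.80) mark the ends, and filled circles lie on both sides of 0 in most receptor lists.

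Receptors of the remaining cullins were spread to both sides. Of 26 F-box receptors of CUL1, 9 had higher and 17 lower fitted values (median −0.16). The block called 1 (3.85%) higher and 4 (15.4%) lower, beside 6.68% and 7.84% of all genes. SKP2, the receptor for the cell cycle inhibitor p27, had 52.9 and 41.4 CPM in control and 20.4 and 21.8 CPM in knockdown libraries (log2-fold change −1.16, standard error 0.16, adjusted p = 0.0219), whereas FBXO22, which acts on p53 and histone demethylases, had 35.0 and 41.7 CPM against 65.3 and 71.2 CPM. Of 11 VHL-box receptors of CUL2, 2 had higher and 9 lower fitted values (median −0.26). Beside the same 6.68% and 7.84%, the block called 1 (9.09%) in each direction. These were FEM1B, which reads the end of its substrates, with 68.5 and 75.0 CPM in control and 112 and 113 CPM in knockdown libraries, and APPBP2, with 70.7 and 60.9 against 33.7 and 35.5 CPM. Of 35 BTB receptors of CUL3, 16 had higher and 19 lower fitted values (median −0.17). Here the block called 2 (5.71%) in each direction, again beside 6.68% and 7.84%. KLHL24, a receptor for keratin 14, had 23.5 and 23.9 CPM in control and 45.4 and 47.8 CPM in knockdown libraries (0.98, standard error 0.11, adjusted p = 0.0161), and KLHL8 17.1 and 21.8 CPM against 5.47 and 6.60 CPM. None of these 3 lists held a call without the isolate, while 14 (53.8%), 4 (36.4%) and 14 (40.0%) of their genes had an unadjusted p below 0.05, beside 28.3% of all genes, and DESeq2 called 4, 2 and 4, beside 9.68% of all genes. These differences in share were not tested.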

How the data were processed

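mRNA-seq was available for 2 control and 2 HMGB1 knockdown libraries of IMR90. The deposited values are raw counts per gene. The authors made TruSeq libraries from poly(A) RNA, sequenced pairs on a HiSeq4000, mapped to hg19 with STAR and counted unique reads with featureCounts. Tool versions, the strand setting and the counting of pairs are not given in the sources used here. Libraries held 29861687 to 35317010 counted reads, and 0 reads lay on 5904 patch or haplotype genes and 37 mitochondrial genes.

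Counts were tested with edgeR 4.0.16 (R 4.3.3, filterByExpr, TMM, quasi-likelihood, Benjamini-Hochberg over 15398 genes), on all 4 libraries without an isolate term. The thresholds follow the study's methods, which used RUVs and DESeq2. Both isolates occur in both groups, so replicate numbers pair the libraries. The replicate differences of the groups correlated at 0.46 across genes. Values of the replicate block stand beside results whose call they change. The smallest two-sided p that permuting 2 against 2 libraries allows is 0.333. Alternatives were DESeq2 (1.42.0) without and with the block, RUVs (1 factor, written out by hand) with DESeq2, DESeq2 size factors, other count filters, an adjusted p below 0.05, and leaving out each library. The edgeR fits without and with the block, DESeq2, and RUVs with DESeq2 were run on simulated counts drawn without an isolate effect. That run cannot show how the fits treat the isolates of these libraries.

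Named were the 10 genes, HMGB1, per list every called gene or else that with the smallest p, the 5 genes most like RNF7, and genes within 500 kb of it. Further pathway genes were named after their values were seen. The genes and lists were chosen with earlier results of these data known. 3′ UTRs are those of GENCODE v44lift37 main transcripts, read from GRCh37. Exon overlap used the count files, shared 50-base pieces the GENCODE transcripts. SOCS7 and PECAM1 found no identifier, and PRAME, SPSB3 and SPSB4 had too few reads.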

Additional observations from a re-analysis of the deposited data

Results flagged for a closer look

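In 4 of the 10 genes the isolates moved in opposite directions. Across all 15398 genes tested, 78.0% moved in the same direction in both isolates, and the difference in share was not tested. The log2-fold change in I90-79 minus that in I90-10 was −0.17 for RBX1, 0.093 for CUL3, 0.31 for CUL4A and 0.40 for UBE2F. With 1 library per isolate and condition this difference was not tested, and the fitted changes of these 4 genes all had 95% intervals that include 0.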

How the results depend on the processing

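Without the isolate 10 genes were called higher and 21 lower. No filter on low counts gave 1118 and 1275, the replicate block 1028 and 1207, DESeq2 702 and 788, DESeq2 with the block 945 and 1062, RUVs with DESeq2 861 and 908, an adjusted p below 0.05 gave 575 and 668, and at least 10 counts in every library 6 higher. Leaving out single libraries gave 0 to 305 higher and 0 to 337 lower. No partner was called without the isolate. Under each of the first 6 of these alternatives 2 were called lower, and leaving out single libraries called 0. Pathway genes called higher and lower numbered 0 and 1, and in the same order of alternatives 12 and 19, 11 and 20, 9 and 12, 11 and 18, 9 and 16, and 6 and 9, with 0 lower at 10 counts in every library and 0 to 3 higher and 0 to 5 lower without single libraries. Leaving out single libraries, log2-fold changes ran from −3.84 to −3.41 for RNF7 and from −3.77 to −3.38 for HMGB1, which was not called without either knockdown library (−3.47 and −3.71). They changed sign for RBX1 (−0.14 to 0.15), CUL3 (−0.020 to 0.044), CUL4A (−0.071 to 0.11) and UBE2F (−0.31 to 0.029). Across 56 single genes and the alternatives that refit the fold change, 610 of 616 values kept their direction. Of these genes 31 were named from their calls in the block fit, and others for a small p or for their likeness to RNF7. All alternatives also refit the same libraries, so kept directions were to be foreseen and are no independent check. The 6 reversed values lay in the 4 partners RBX1, CUL3, CUL4A and UBE2F. The causes were not tested. The block changed the calls of CUL2 and CUL5 among the partners.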
